A study of Mus musculus with 57 samples.

Results

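Transcripts that mark cells of the oligodendrocyte lineage before they myelinate were followed in ribosome-bound RNA pulled down from cortical astroglia of postnatal mice. The 9 genes were matched by symbol to 21118 genes in the deposited count table, and all 9 had a row. They are 3 surface receptors or proteoglycans of precursor cells (Pdgfra, Cspg4 and Gpr17), 4 transcription factors (Olig1, Olig2, Sox10 and Nkx2-2) and 2 genes of newly formed, premyelinating cells (Bcas1 and Enpp6). All mice carried the Aldh1l1-L10-GFP transgene on C57BL/6, in which a green fluorescent ribosomal protein is driven by the promoter of Aldh1l1, a folate enzyme of astrocytes, and polysomes of whole cortex were captured through that tag. Of 53 libraries, females and males numbered 4 and 4 at P1 (postnatal day 1), 4 and 4 at P4, 8 and 4 at P7, 5 and 5 at P14, 3 and 3 at P35, and 4 and 5 in adults. The labels give no other genotype or treatment. Libraries of unselected cortical RNA were not analysed here, so these levels do not show how far the pull-down enriched or depleted a transcript. In bulk samples, fewer cells of a type and less RNA per cell cannot be told apart.

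Oligodendrocytes arise from dividing precursor cells that spread through the cortex around birth, and most precursors leave the cycle, pass through a brief premyelinating stage and then wrap axons during the first postnatal weeks. Precursors are recognised by PDGFRA, the receptor for platelet-derived growth factor A that drives their division, and by the proteoglycan NG2 encoded by Cspg4, which pericytes also carry; Pdgfra is also a marker of meningeal fibroblasts. OLIG1 and OLIG2 are basic helix-loop-helix factors that specify the lineage, and OLIG2 is also found in glial progenitors and in some astrocytes. SOX10 and NKX2-2 promote the step to differentiation, the receptor GPR17 marks committed precursors that have left the cycle, and BCAS1 and the choline phosphodiesterase ENPP6 mark cells about to myelinate.

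The 250 bases before the RefSeq start are shown for 4 members whose levels moved together or apart across the libraries, with Pdgfra and Cspg4 as the surface proteins of precursors and Olig2 and Nkx2-2 as the transcription factors. The sequences are those of RefSeq on GRCm38.p6, whose table held 5 of the 9 members, each written 5′ to 3′ on the gene's strand. Capitals mark exact matches, on either strand, to the SOX cores ACAAAG and ACAATG and to the E-boxes CANNTG and CAGCTG, of which CAGCTG is itself a form of CANNTG.
Pdgfra, chr5:75152001-75152250, plus strand: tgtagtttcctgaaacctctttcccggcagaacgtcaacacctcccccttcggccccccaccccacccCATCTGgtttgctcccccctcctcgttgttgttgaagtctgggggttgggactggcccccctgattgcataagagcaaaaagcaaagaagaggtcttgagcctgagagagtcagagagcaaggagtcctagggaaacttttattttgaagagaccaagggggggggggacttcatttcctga
Cspg4, chr9:56864854-56865103, plus strand: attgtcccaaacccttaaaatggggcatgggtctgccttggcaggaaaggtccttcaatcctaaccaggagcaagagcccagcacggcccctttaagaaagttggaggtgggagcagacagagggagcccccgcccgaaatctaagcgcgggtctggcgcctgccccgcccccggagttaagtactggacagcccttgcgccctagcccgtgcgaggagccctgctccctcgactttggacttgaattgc
Olig2, chr16:91225300-91225549, plus strand: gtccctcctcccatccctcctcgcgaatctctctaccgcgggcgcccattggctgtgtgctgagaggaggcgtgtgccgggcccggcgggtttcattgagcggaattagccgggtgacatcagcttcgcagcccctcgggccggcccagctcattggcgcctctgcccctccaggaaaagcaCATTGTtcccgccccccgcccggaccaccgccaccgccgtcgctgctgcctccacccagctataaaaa
Nkx2-2, chr2:147186403-147186652, minus strand: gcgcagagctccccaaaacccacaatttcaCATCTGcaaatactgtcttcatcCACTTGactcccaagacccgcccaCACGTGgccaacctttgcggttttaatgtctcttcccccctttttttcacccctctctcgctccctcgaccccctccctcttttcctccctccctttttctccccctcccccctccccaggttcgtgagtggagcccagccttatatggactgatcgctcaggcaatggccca
The Nkx2-2 window held 3 matches to CANNTG, the Pdgfra window held 1, and the Olig2 window held 1 match to ACAATG on the minus strand, whose first base lies at position -68 from the start. Of 32851 windows of the same length in the table, 66.2% held CANNTG, 13% CAGCTG, 16.5% ACAAAG and 10.7% ACAATG. The Cspg4 window held none of the 4, which says only that these letters are absent from it. The RefSeq starts used for these windows are not all the outermost starts of the GENCODE genes given next: the Nkx2-2 window lies wholly within the GENCODE gene, and the Olig2 and Cspg4 windows run past its start, so that the Olig2 match falls inside the GENCODE gene.

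Positions are those of the GENCODE annotation of GRCm38, the assembly that the submitters' processing notes name. Olig2 at chr16:91225457-91228677 and Olig1 at chr16:91269772-91271933 are neighbours on the plus strand. Pdgfra is at chr5:75152292-75198215, Cspg4 at chr9:56865033-56899870 and Enpp6 at chr8:46986887-47096762, all on the plus strand. Sox10 at chr15:79154908-79165240, Nkx2-2 at chr2:147177546-147194243, Bcas1 at chr2:170346991-170427845 and Gpr17 at chr18:31942997-31949636 are on the minus strand. The exons of Gpr17 overlap those of Lims2 on the other strand, which had a median of 9.33 CPM, a gene's counts scaled to a common library size. Nkx2-2 overlaps Nkx2-2os, with a median of 2.01 CPM, and Bcas1 overlaps Bcas1os2, with a median of 0.232 CPM. The kit marked strand, but the strand setting of the counting is not given in the sources used here, so reads of these overlapping pairs cannot be assigned with certainty.

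Library totals ran from 14768178 to 48541139 counts with a median of 24033399. On these raw totals, 0 counts allow up to 0.0618 to 0.203 CPM (3 counts, counting error only). The CPM values given here use library sizes adjusted by the normalization, so the limit can be higher in single libraries. In P14 male 4, 2 counts of Cspg4 gave 0.223 CPM. Library numbers are shared between groups, and the first digit of a library's number defines its replicate set: 10 libraries are in set 1, 8 in set 2, 12 in set 3, 11 in set 4 and 8 in set 6. Another 4, all at P7 (female S1 and S2, male S1 and S2), came from the second sequencing run alone and form set S. The labels do not say what a set shares. For 5 libraries the letter in the name is that of the opposite sex to the label: females 10, 30 and 40 at P7, male 10 at P35 and male 60 among the adults. In 6 the Y-linked transcripts go against the labelled sex (P4 female 2, P4 male 4, P7 female S2, P7 male S2, P35 male 10 and adult male 60). The 3 libraries with the fewest genes at 10 counts or more stood apart, with 10085 genes in P1 female 4, 13834 in P7 female 40 and 14530 in P14 male 4. P1 female 4 also had the lowest Aldh1l1, at 10.1 CPM against a median of 155 CPM over all libraries.

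Compared per kilobase of exon, Olig1 and Olig2 had the highest levels. Olig1 had a median of 217 CPM per kilobase over the 53 libraries and Olig2 a median of 23.6. Sox10 (5.81), Nkx2-2 (4.21), Bcas1 (3.45) and Gpr17 (1.05) followed, and Pdgfra (0.37), Cspg4 (0.242) and Enpp6 (0.0688) were lowest. The lowest Olig1 value, 63.6, was above the highest of every other member except Olig2, whose libraries ran from 2.63 to 127. Below Olig2, neighbours in this order were not separated by their spread: Sox10 libraries ran from 1.18 to 25.4, Nkx2-2 from 0 to 12.5 and Bcas1 from 0.324 to 33.4. Enpp6 had 0 counts in 9 of 53 libraries, Pdgfra, Cspg4, Nkx2-2 and Gpr17 in 1 each, and Olig1, Olig2, Sox10 and Bcas1 in none.

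**Figure D1:**
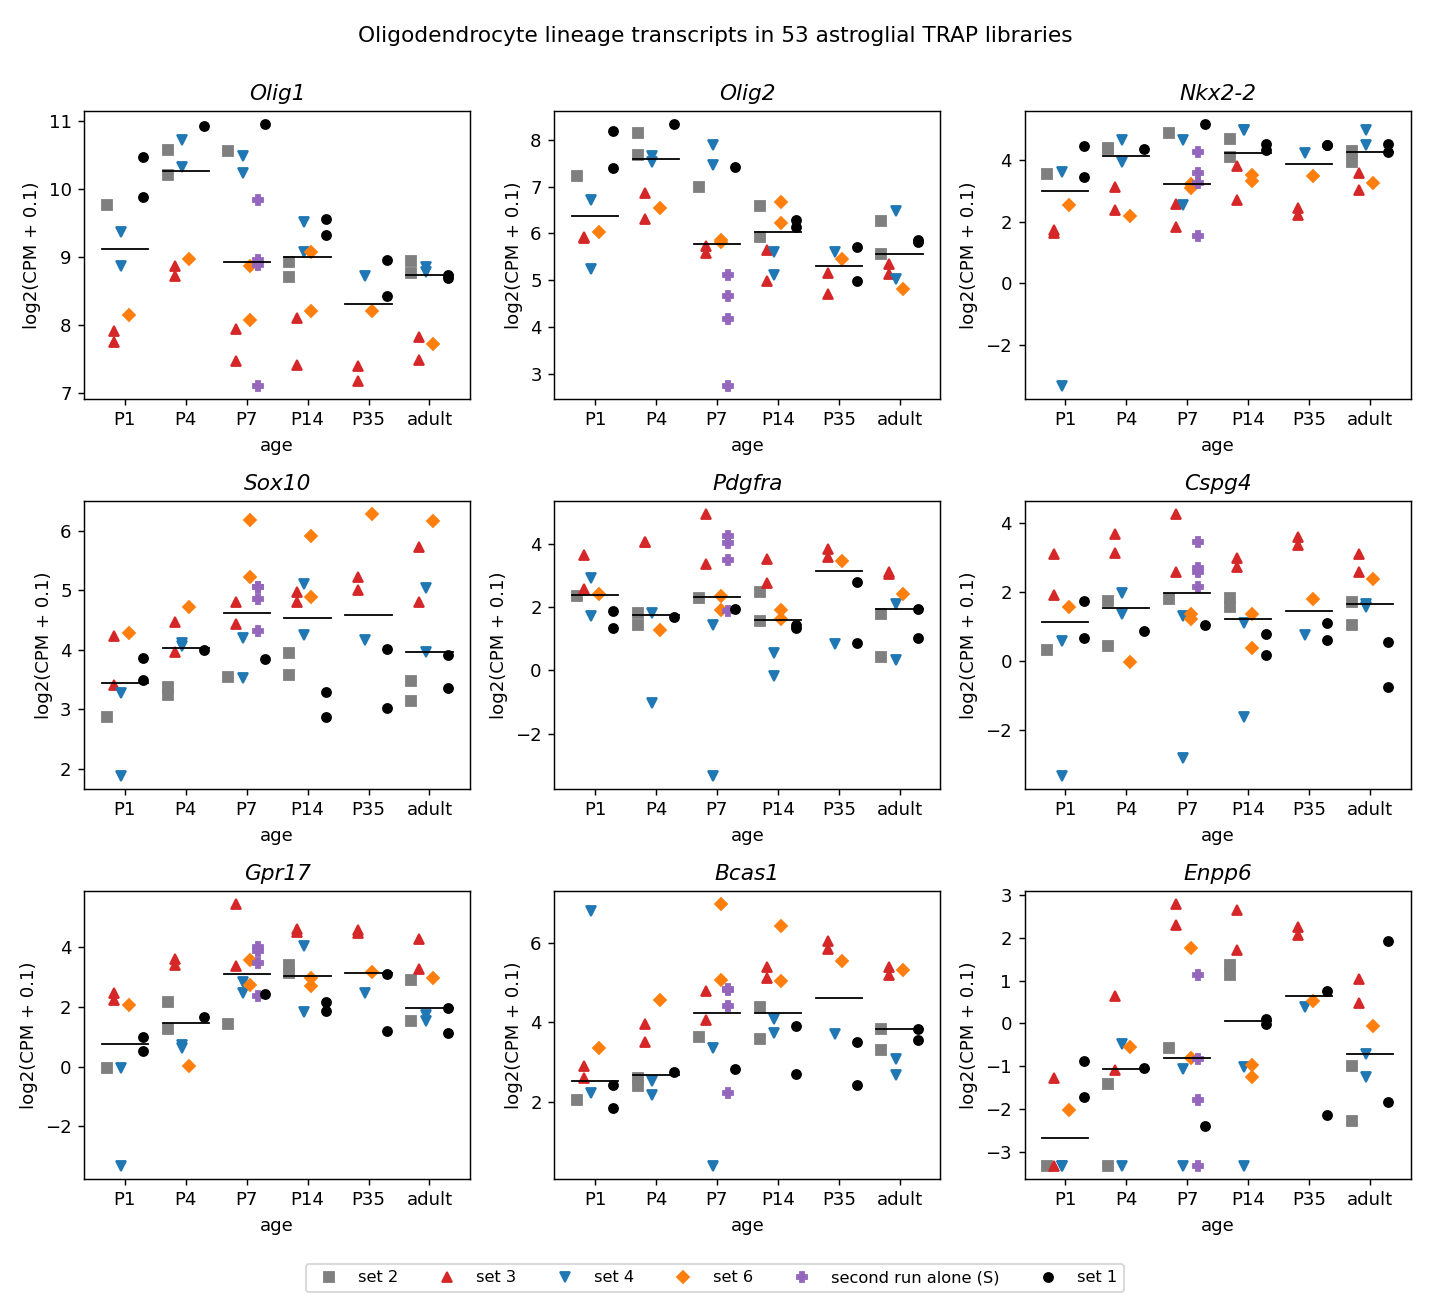
Level of each transcript in every library as log2(CPM + 0.1), by age from P1 to adult, with a line at each age's median and a symbol for each replicate set. The libraries of set 3 (red) lie in the lower part of each age for Olig1 and Nkx2-2, and are the highest of P4, P14, P35 and the adults for Pdgfra, Cspg4 and Gpr17. Olig1 and Olig2 have their highest medians at P4, 1240 and 192 CPM.

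Between P1 and adulthood Olig2 fell, Sox10 and Enpp6 rose, and the remaining 6 members did not pass the threshold (adjusted p of 0.05, edgeR's quasi-likelihood test in 1 model of all libraries, which had no term for the replicate set). These 3 of 9 members stand beside 28.1% of all 21118 genes, 14.6% called higher and 13.4% called lower in adults, so the members' share is near the background. For each member the adult and P1 libraries overlapped in range. With the replicate set in the model, Olig1, Nkx2-2 and Gpr17 passed as well (adjusted p = 0.0204, 0.0277 and 0.00305). That made 6 of 9 members, against 41.3% of all genes.

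Olig2 ran from 27.9 to 89.5 CPM with a median of 46.8 in 9 adult libraries, against 37.8 to 291 CPM with a median of 84.9 in 8 P1 libraries. It was lower in adults by a log2 difference of -1.23 ± 0.357 (SE, adjusted p = 0.00794). The highest P1 value belonged to P1 female 1; without that library the difference was -0.70 with an adjusted p of 0.108, and no other single library ended the call. The highest median over the ages was that of P4, 192 CPM, and it was 54.3 CPM at P7, 65.2 at P14 and 39.5 at P35. The P7 median includes the 4 libraries of set S, a set found only at P7, which ran from 6.66 to 34.5 CPM.

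Olig1, which shares the locus of Olig2, ran from 179 to 493 CPM with a median of 426 in adults and from 215 to 1420 CPM with a median of 567 at P1. The difference of -0.80 ± 0.436 did not pass the threshold (adjusted p = 0.168). Its medians at P4, P7, P14 and P35 were 1240, 485, 514 and 319 CPM. The P7 median includes the 4 libraries of set S, which ran from 138 to 920 CPM. The P4 libraries reached 1950 CPM and the P7 libraries 1990 CPM, while no library from P14 onward exceeded 755 CPM.

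Sox10 ran from 8.65 to 71.5 CPM with a median of 15.5 in adults and from 3.59 to 19.4 CPM with a median of 10.8 at P1. The difference of 1.20 ± 0.438 passed the threshold (adjusted p = 0.0353). Leaving out 1 of 8 libraries ended the call: P1 female 3 or 4, P1 male 1, 2 or 4, adult female 3 or 4, or adult male 60, with differences between 0.84 and 1.19 and adjusted p-values between 0.0528 and 0.138. The lowest of these came without adult male 60, whose 71.5 CPM is the highest adult value and whose labels conflict. The difference was 1.04 without the 3 libraries with fewest genes (adjusted p = 0.0726) and 1.00 by limma voom (adjusted p = 0.118), which also ended the call.

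Nkx2-2 ran from 8.15 to 31.7 CPM with a median of 19.2 in adults and from 0 to 21.7 CPM with a median of 8.35 at P1. Its difference of 1.07 ± 0.554 did not pass (adjusted p = 0.149); the P1 library at 0 is P1 female 4, and without P1 female 1 the adjusted p was 0.0185 with a difference of 1.74, and limma voom gave 1.89 with an adjusted p of 0.0236. Medians stayed between 9.29 CPM at P7 and 18.5 CPM at P14 among the ages between P4 and P35.

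Pdgfra ran from 1.16 to 8.5 CPM with a median of 3.71 in adults and from 2.43 to 12.3 CPM with a median of 5.08 at P1 (difference -0.39 ± 0.656, adjusted p = 0.71). Cspg4 ran from 0.493 to 8.54 CPM with a median of 3.07 in adults and from 0 to 8.43 CPM with a median of 2.19 at P1 (difference 0.36 ± 0.70, adjusted p = 0.751). The 95% intervals, from -1.70 to 0.94 for Pdgfra and from -1.05 to 1.76 for Cspg4, reach below -1 for both and above 1 for Cspg4, so that neither gene can be called constant. Both genes had their highest single value in P7 female 3, at 30.4 CPM for Pdgfra and 19.1 CPM for Cspg4.

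The genes of committed and premyelinating cells had their lowest medians at P1; for Bcas1 the mean was lowest at P4, at 9.77 CPM. Gpr17 ran from 2.06 to 19.2 CPM with a median of 3.76 in adults and from 0 to 5.45 CPM with a median of 1.61 at P1. The difference of 1.48 ± 0.637 had an adjusted p of 0.0766. It passed when P1 male 3 was left out (1.91, adjusted p = 0.0305), by DESeq2 (1.54, adjusted p = 0.0314) and by limma voom (1.93, adjusted p = 0.0433). The medians over P4, P7, P14 and P35 were 2.67, 8.64, 8.15 and 8.67 CPM.

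Bcas1 ran from 6.33 to 42.3 CPM with a median of 14.2 in adults and from 3.49 to 112 CPM with a median of 5.63 at P1. The value of 112 CPM belongs to P1 female 4, the library with the fewest genes, and the next P1 value was 10.2 CPM. With that library the difference was 0.67 ± 0.603 (adjusted p = 0.44), and without it 1.76 (adjusted p = 0.0212).

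Enpp6 was the rarest member. It had 0 counts in 4 of 8 P1 libraries, 2 of 8 at P4, 2 of 12 at P7, 1 of 10 at P14 and none at P35 or in adults. Its levels ran from 0.105 to 3.67 CPM with a median of 0.511 in adults, and from 0 to 0.441 CPM with a median of 0.0732 at P1, which lies below the value that 3 counts give in the shallower libraries. The fitted difference of 2.78 ± 1.07 passed the threshold (adjusted p = 0.046). The call was lost when any 1 of 13 libraries was left out: P1 female 3, 4 or 6, P1 male 2, 3 or 4, P4 female 3, P4 male 1, P14 female 3, adult female 3 or 4, or adult male 1 or 3, with differences between 1.95 and 2.94 and adjusted p-values between 0.0501 and 0.179.

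**Figure D2:**
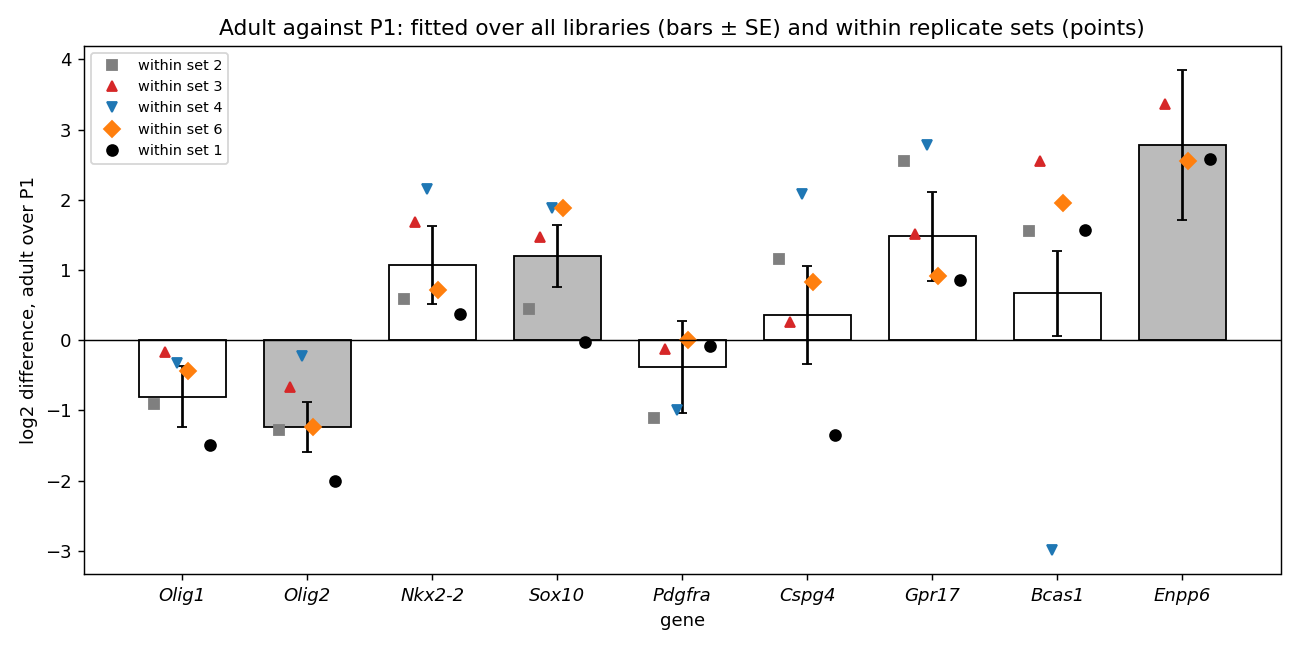
Difference between adult and P1 libraries on the log2 scale for each transcript, as fitted over all libraries (bars with SE, grey where the adjusted p was under 0.05) and as the ratio of mean CPM within each replicate set (points). Olig1 and Olig2 lie below 0 in all 5 sets and Nkx2-2 and Gpr17 above 0 in all 5; Enpp6 has no point for sets 2 and 4, whose P1 libraries had 0 counts.

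Within the 5 replicate sets that held both ages, with 1 or 2 libraries of an age in a set and no test, most members kept 1 direction. Olig1 and Olig2 were lower in adults than at P1 in 5 of 5 sets, with log2 ratios of mean CPM between -1.49 and -0.17 for Olig1; for Olig2 the smallest was -0.22 in set 4 and the largest in set 1, whose means were 57.1 CPM in adults and 229 CPM at P1. Gpr17 and Nkx2-2 were higher in adults in 5 of 5 sets, with ratios between 0.85 and 2.78 for Gpr17 and between 0.37 and 2.16 for Nkx2-2. Enpp6 was higher in 5 of 5, of which sets 2 and 4 had no count at P1, and the other sets had ratios of 2.58, 3.36 and 2.56. In set 1 the ratio rests on adult male 1 at 3.67 CPM. Adult female 1, at 0.179 CPM, was below both P1 libraries (0.202 and 0.441 CPM). The adults of set 2 had 2 and 9 counts.

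Sox10 was higher in 4 of 5 sets and showed the level of P1 in set 1 (12.5 CPM in adults and 12.8 CPM at P1). Bcas1 was higher in 4 of 5; in set 4, which holds P1 female 4, the adult mean was 7.35 CPM against 58.3 CPM at P1. Pdgfra was lower in 4 of 5 sets and equal to 3 digits in set 6, at 5.23 CPM in adults and at P1. Cspg4 was higher in 4 of 5 and lower in set 1, at 0.925 CPM in adults and 2.36 CPM at P1.

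From P1 to P7, Enpp6 rose and no other member passed, against 3.67% of all genes in either direction and 2.62% higher. The model's term for the second run took up the general level of the 4 set S libraries, all at P7. Fitted differences that involve P7 therefore rest mainly on the other P7 libraries, while ranges and medians at P7 cover all 12. Enpp6 ran from 0 to 6.8 CPM with a median of 0.467 in 12 P7 libraries and had a fitted difference of 4.37 ± 1.22 from P1 (adjusted p = 0.0305). The high P7 libraries were females 3 and 30 at 6.8 and 4.8 CPM and males 6 and S1 at 3.3 and 2.07 CPM, while the other 8 stayed at or below 0.568 CPM. Within replicate sets Enpp6 was higher at P7 than at P1 in 4 of 5 and lower in set 1, at 0.0915 CPM at P7 and 0.322 CPM at P1. Without P1 female 3 or 4, P1 male 2 or 4, P7 female 3 or 30, or P7 male 6 the call was lost, with differences between 3.72 and 4.65 and adjusted p-values between 0.0505 and 0.15. Without the 4 libraries of set S the difference was 3.84 with an adjusted p of 0.0511.

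Gpr17 ran from 2.56 to 43.5 CPM with a median of 8.64 at P7, and its difference of 2.27 ± 0.703 from P1 had an adjusted p of 0.0567. It was above the P1 mean in 5 of 5 replicate sets, by log2 ratios between 1.17 and 3.84, and DESeq2, limma voom and a filter at 1 CPM each put it past the threshold, with adjusted p-values of 0.00932, 0.0343 and 0.0494, as did the model with no run term (0.0203). Leaving out P1 male 3 or P7 male 2 did so too, with differences of 2.70 and 2.60 and adjusted p-values of 0.0255 and 0.0333. Sox10 differed by 1.29 ± 0.458 (adjusted p = 0.108) and was above its P1 mean in 5 of 5 sets. Bcas1 differed by 1.31 ± 0.636 (adjusted p = 0.295), or by 2.41 without P1 female 4 (adjusted p = 0.0207). Its difference was smaller, at 0.495, without P7 male 6. With the replicate set in the model it was 0.326 ± 0.535 (adjusted p = 0.749).

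No member passed between P7 and P14, where 0.0189% of genes did, or between P14 and adulthood, where 0.469% did. By an unadjusted p under 0.05 none of the 9 passed in either step in the model without the replicate set. From P4 to P7 no member passed, against 0.152% of genes, and 3 had an unadjusted p under 0.05: Olig2 at -0.82 ± 0.379, Bcas1 at 1.70 ± 0.641 and Enpp6 at 2.60 ± 1.14. The Olig1 and Olig2 differences between P4 and P1, 0.81 ± 0.449 and 0.62 ± 0.364, had adjusted p-values of 1, and no gene passed in that step. With the replicate set in the model no member passed in any of these steps, against 3.30% of genes from P7 to P14 and 3.25% from P14 to adulthood. The shares were 1.67% from P4 to P7 and 0.440% from P1 to P4. Olig1 and Olig2 then differed between P4 and P1 by 0.90 ± 0.248 (adjusted p = 0.0775) and 0.70 ± 0.283 (adjusted p = 0.286). Olig1 and Olig2 from P7 to P14, and Olig1 and Gpr17 from P14 to adulthood, had an unadjusted p under 0.05 in that model.

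A test for any difference among the 6 ages called Olig1 (adjusted p = 0.00845), Olig2 (4.39e-05), Gpr17 (0.0397) and Enpp6 (0.0326), which is 4 of 9 members against 24.9% of genes. Sox10 (0.132; 0.0496 by DESeq2), Bcas1 (0.138; 0.0437 by DESeq2), Nkx2-2 (0.633), Pdgfra (0.847) and Cspg4 (0.929) did not pass. The calls of Olig1 and Olig2 were kept with each library left out in turn. That of Gpr17 was lost without any 1 of 18 libraries, namely P1 female 1 or 6, P1 male 1, 2 or 4, P4 female 2, 4 or 6, P4 male 1, 2 or 4, P7 male 6, P14 female 3, P14 male 3 or 4, P35 female 3, P35 male 3 and adult female 4 (adjusted p-values between 0.0502 and 0.0801). That of Enpp6 was lost without any 1 of 6 (P1 female 3, 4 or 6, P1 male 2 or 4, or P35 male 3, adjusted p-values between 0.0506 and 0.0647). Leaving out P1 female 4 brought Bcas1 past the threshold, with an adjusted p of 0.00627.

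No member passed the threshold between the labelled sexes, where 5 genes or 0.0237% were called. The female minus male differences lay between -0.63 ± 0.594 for Enpp6 and 0.43 ± 0.348 for Bcas1, and no member had an unadjusted p under 0.05. Olig2 had a difference of -0.01 with a 95% interval from -0.43 to 0.40, the narrowest of the 9, and Enpp6 had the widest, from -1.83 to 0.56. Medians in 28 female and 25 male libraries were 56 and 60.7 CPM for Olig2, 438 and 488 CPM for Olig1, and 18.6 and 16 CPM for Sox10. In the test for an age pattern that differs between the labelled sexes no member passed either. It called 0 genes or 0% by edgeR, with 353 genes at an unadjusted p under 0.05, and 3 by DESeq2. Bcas1 had an unadjusted p of 0.0163 by edgeR, which was 0.167 without P7 male 6 and 0.00326 with the replicate set in the model. These labels are in doubt for the libraries named above.

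The libraries also differed by replicate set. A test of all set terms together, with age and sex in the model, called 9 of 9 members and 69.1% of all genes, so that the members' share, although complete, sits on a high background. The adjusted p-values ran from 6.08e-10 for Olig1 to 0.00114 for Enpp6, and each member was called with each of the 53 libraries left out in turn.

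Set 3 stood apart from set 1 in 8 of 9 members, against 53.0% of genes. The direction split the lineage: 5 members were higher in set 3 (28.2% of genes) and 3 transcription factors were lower (24.8%). Pdgfra ran from 5.77 to 30.4 CPM with a median of 11.5 in 12 libraries of set 3, against 1.73 to 6.78 CPM with a median of 2.85 in 10 libraries of set 1 (difference 2.03 ± 0.452, adjusted p = 0.000232). Cspg4 ran from 3.65 to 19.1 CPM in set 3 and from 0.493 to 3.22 CPM in set 1, with no overlap (2.39 ± 0.486, adjusted p = 6.98e-05). Gpr17 had medians of 15.6 CPM in set 3 and 3.29 CPM in set 1 (2.20 ± 0.389, adjusted p = 8.52e-06). Bcas1 (1.79) and Sox10 (0.97) were higher too, and Enpp6 differed by 1.47 ± 0.791, which did not pass (adjusted p = 0.115).

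Olig1 ran from 145 to 468 CPM with a median of 221 in set 3, against 344 to 1990 CPM with a median of 699 in set 1 (difference -1.93 ± 0.217, adjusted p = 1.13e-09). Olig2 had medians of 48.9 CPM in set 3 and 73.8 CPM in set 1 (-1.24 ± 0.244, adjusted p = 4.31e-05). Nkx2-2 had medians of 5.63 CPM in set 3 and 22 CPM in set 1 (-1.87 ± 0.376, adjusted p = 5.83e-05).

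Set 6 differed from set 1 in 5 members, against 34.3% of genes. Sox10 ran from 19.4 to 77.5 CPM in its 8 libraries and from 7.21 to 16 CPM in set 1, with no overlap (1.77 ± 0.282, adjusted p = 2.87e-06). Bcas1 had medians of 36.6 CPM in set 6 and 6.85 CPM in set 1 (2.24 ± 0.508, adjusted p = 0.000503). Olig1 (-1.41), Olig2 (-0.81) and Nkx2-2 (-1.49) were lower, as in set 3, while Pdgfra (0.65 ± 0.505), Cspg4 (0.60 ± 0.538) and Gpr17 (0.74 ± 0.435) did not pass.

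The 4 libraries of set S differed from set 1 in 5 members, against 32.6% of genes. Olig2 was at 34.5 and 25.2 CPM in P7 females S1 and S2 and at 18 and 6.66 CPM in P7 males S1 and S2, against 170 CPM in the single P7 library of set 1 and 31.6 to 322 CPM in all of set 1. The difference of -2.85 ± 0.429 (adjusted p = 1.89e-06) was the largest set difference of any member. Olig1 was lower (-1.37), and Pdgfra (1.90), Cspg4 (1.95) and Sox10 (0.97) were higher. Sets 2 and 4 differed from set 1 in no member, where 0% and 17.9% of genes were called; 1126 genes had an unadjusted p under 0.05 for set 2.

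**Figure D3:**
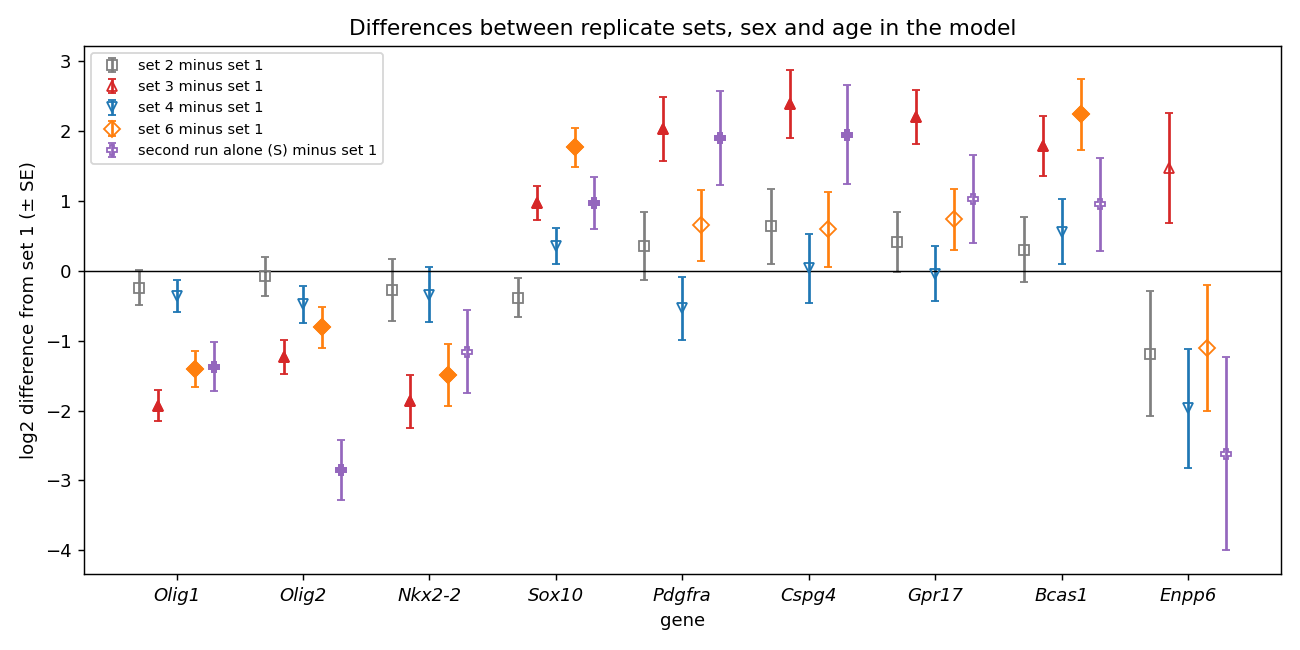
Difference of each replicate set from set 1 on the log2 scale, with SE, from the model with sex and age; filled symbols have an adjusted p under 0.05. Sets 3, 6 and S lie below 0 for Olig1 and Olig2 and above 0 for Sox10, and sets 3 and S lie near 2 for Pdgfra and Cspg4.

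Marker levels of other cells also differed between sets. Of 16 neuron markers, 16 were higher in set 3, 15 in set 6 and 14 in set S than in set 1, and of 16 mature astrocyte markers, 16, 16 and 14 were lower. The summed neuron markers had a median of 8460 CPM in set 3 (4880 to 9860), 10100 CPM in set 6 (7930 to 12800) and 9530 CPM in set S (6610 to 12100), against 2110 CPM in set 1 (1740 to 3700). The summed astrocyte markers had medians of 3430 CPM in set 3 (1040 to 13000), 2340 CPM in set 6 (746 to 4330) and 2940 CPM in set S (1310 to 4240), against 13800 CPM in set 1 (4330 to 22400). In set 4, where no member was called, 6 of 16 neuron markers were higher and 1 lower, and 10 of 16 astrocyte markers were lower and 0 higher. Summed medians there were 3210 CPM for neuron markers (2560 to 9590) and 5720 CPM for astrocyte markers (1170 to 25700). The part of both lists in the differences of the lineage genes was not tested.

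Pericytes and fibroblasts, which share Cspg4 or Pdgfra with the precursors, were read from lists of their own. Of 12 pericyte and mural cell markers, 3 were higher in set 3 and none lower, with summed medians of 94.2 CPM in set 3 (60.6 to 128) and 54.3 CPM in set 1 (42.9 to 75.7). Of 10 fibroblast and meningeal markers, 3 were higher and 1 lower, with summed medians of 68.4 CPM in set 3 (25.9 to 110) and 53.3 CPM in set 1 (30 to 89.3). Over all genes, 28.2% were higher and 24.8% lower in set 3. Rgs5, a pericyte marker, was higher by 1.48 ± 0.217 (adjusted p = 3.04e-07), and Col3a1, a fibroblast collagen, by 2.11 ± 0.706 (adjusted p = 0.0111). In set 6, where Cspg4 and Pdgfra did not pass, 3 pericyte markers were higher and 2 lower, with a summed median of 111 CPM (69.7 to 134). In set S, where both passed, 1 was higher and 0 lower, with a summed median of 65.9 CPM (52.3 to 70.5). Fibroblast medians were 44.2 CPM in set 6 (25.5 to 86.2) and 57.2 CPM in set S (49.9 to 68.9). Of 10 endothelial markers, 7 were higher in set 3 and none lower (median 1.51), with summed medians of 76.5 CPM in set 3 (36 to 192) and 30.8 CPM in set 1 (22 to 54.1); none was called in set 6 or set S. The part of these 3 lists was not tested either.

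Other genes of the same stages did not split as one block between the sets. Of 20 further precursor genes, 6 were higher and 9 lower in set 3 than in set 1 (median -0.004 against 0.11 over all genes), and 2 were higher and 9 lower in set 6. Megf11, a precursor receptor, was higher in set 3 (1.74 ± 0.265) and in set 6 (2.19 ± 0.304), while Gpr37l1 (-2.57 ± 0.315 and -3.72 ± 0.387) and Ednrb (-1.63 ± 0.227 and -2.71 ± 0.279), which astrocytes also express, were lower in both. Of 20 committed precursor genes 5 were higher and 4 lower in set 3, and of 19 myelin genes 7 were higher and none lower.

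Gene lists other than the members were compared between the same ages. All 19 myelin and mature oligodendrocyte genes rose, with a median log2 difference of 3.40 against 0.06 over all genes, those with the smallest adjusted p being Opalin (6.89 ± 1.04) and Mobp (6.65 ± 1.01), both myelin membrane genes, Cnp (2.01 ± 0.31) and the lipid hydroxylase Fa2h (4.75 ± 0.759). Their summed level ran from 903 to 2600 CPM with a median of 1090 in adults and from 123 to 311 CPM with a median of 165 at P1, with no overlap. All 16 cell cycle genes, which belong to no single cell type, fell (median -4.21), among them Cdk1 (-5.84 ± 0.614) and Nusap1 (-4.09 ± 0.454).

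The precursor list was mixed, with 5 of 20 rising, 4 falling and a median of 0.15. Cacng4, a channel subunit of precursors, fell by 2.52 ± 0.239, while Gpr37l1 rose by 4.10 ± 0.716. Of 20 committed precursor genes 7 rose and 6 fell (median 0.41), with Nkx6-2, a homeobox factor of oligodendrocytes, rising by 3.64 ± 0.696 and Mpzl1 and Rras2 falling by 1.82 ± 0.247 and 1.79 ± 0.269. Of 32 measured ligands, partners and regulators 7 rose and 4 fell (median 0.11); Hdac2, a deacetylase needed for the lineage, and the chromatin remodeller Chd7 fell by 1.96 ± 0.395 and 1.30 ± 0.319, while Id4 and Id2, inhibitors of basic helix-loop-helix factors, rose by 1.75 ± 0.428 and 1.58 ± 0.42.

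Other cell types changed over the same span. Of 16 mature astrocyte markers 12 rose, with a summed median of 17800 CPM in adults (4210 to 25700) and 1610 CPM at P1 (746 to 5550). Of 16 neuron markers 7 rose and 4 fell, with summed medians of 3960 CPM in adults (2960 to 12800) and 5410 CPM at P1 (1910 to 9670). Pericyte markers had summed medians of 57.3 CPM in adults (43 to 121) and 68.8 CPM at P1 (57.5 to 110), with 1 of 12 rising and 1 falling, and fibroblast markers 69.8 CPM in adults (25.9 to 89.3) and 69.3 CPM at P1 (34.5 to 86.2), with 1 of 10 falling. Of 10 endothelial markers 2 rose and 1 fell, and of 10 microglia markers 3 rose. Their part in the age differences of the lineage genes was not tested.

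Of the 19 myelin genes 12 did not pass between P1 and P7 and 7 rose (list median 1.85 against 0.10 over all genes), the risers including Mobp (5.01 ± 0.959), Mbp (3.12 ± 0.602) and Fa2h (2.92 ± 0.723). Of the precursor genes Neu4 (3.83 ± 0.834), a sialidase, and Susd5 (4.09 ± 1.20) rose and Cacng4 fell by 1.20 ± 0.251. The only committed precursor gene called, Lims2 (1.70 ± 0.445), is the one whose exons overlap Gpr17. No regulator and no cell cycle gene was called in that step. Of 16 neuron markers 5 rose and none fell, among them Snap25 (2.07 ± 0.486) and Camk2a (2.70 ± 0.639), with summed medians of 9170 CPM at P7 (2040 to 12100) and 5410 CPM at P1 (1910 to 9670). Of 16 mature astrocyte markers 1, S100b, rose (2.88 ± 0.625), with summed medians of 2990 CPM at P7 (1310 to 8900) and 1610 CPM at P1 (746 to 5550). No pericyte, fibroblast, endothelial or microglia marker was called. The P7 sums include the 4 libraries of set S, which has no library at P1. With the replicate set in the model, 11 of 16 astrocyte markers rose from P1 to P7 and none fell (list median 1.16). Of the 16 neuron markers, 6 rose and 2 fell in that model (list median 0.228). The part of these markers in the differences of the lineage genes was not tested.

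Across the 53 libraries, some members went together, given here as a description because libraries share replicate sets, depth and age. Olig1 and Olig2 had a Pearson r of 0.777 on the log2 CPM scale, and Pdgfra and Cspg4 one of 0.683. Sox10 and Gpr17 (0.634), Cspg4 and Gpr17 (0.619), and Sox10 and Bcas1 (0.588) went together. Olig1 and Bcas1 went opposite ways (-0.665), as did Olig1 and Pdgfra (-0.566). After group and replicate set were removed, Olig1 and Olig2 still had r = 0.73, Pdgfra and Cspg4 had 0.417, and Sox10 and Bcas1 had 0.0166. Nkx2-2 then had 0.584 with Cspg4, 0.537 with Gpr17 and -0.586 with Bcas1, Sox10 and Gpr17 had 0.543, and Gpr17 and Bcas1 had -0.453, against 0.332 as they stand. These values include P1 female 4, which had 0 counts of Nkx2-2, Cspg4 and Gpr17 and 112 CPM of Bcas1. The r values without that library were not computed.

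**Figure D4:**
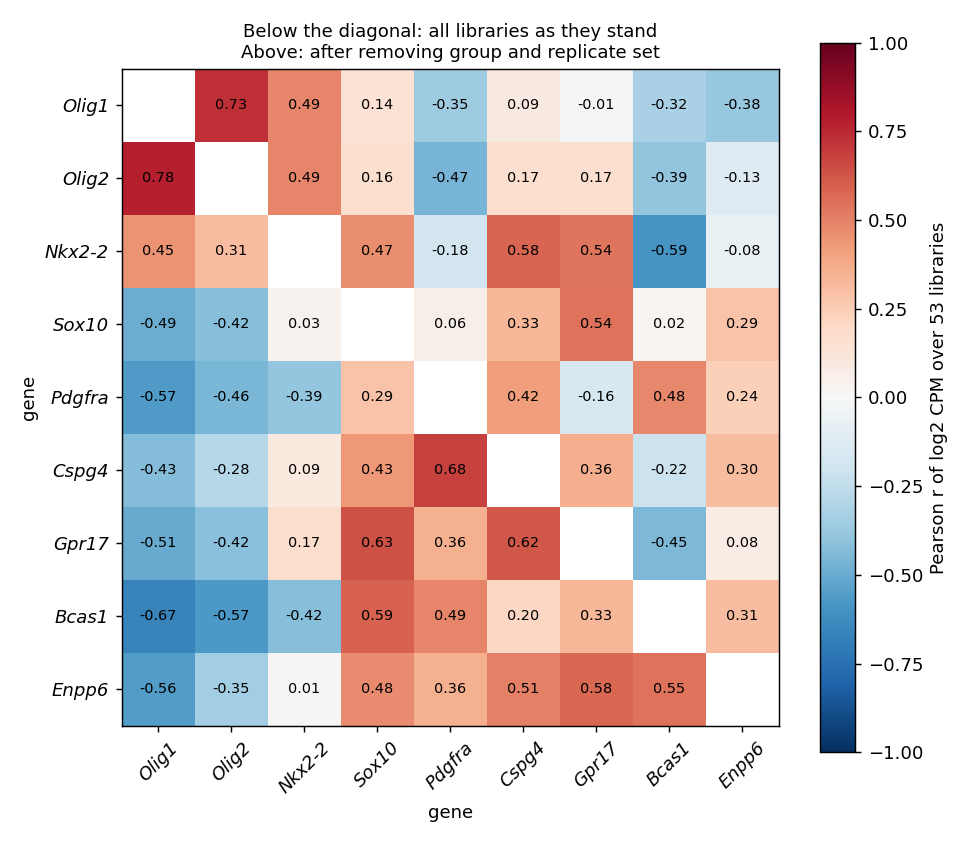
Pearson r of log2 CPM between members over 53 libraries, as they stand (below the diagonal) and after removing group and replicate set (above it). Olig1 and Olig2 stay together at 0.777 and 0.73, while Sox10 and Bcas1 have 0.588 as they stand and 0.0166 after the removal. P1 female 4, with 0 counts of Nkx2-2, Cspg4 and Gpr17 and 112 CPM of Bcas1, is included.

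The genes most like each member, by r over the same libraries among 13419 genes with a mean of at least 1 CPM, came partly from the lineage. Enpp6 was nearest to Ugt8a (0.765), the enzyme of myelin galactolipids, Neu4 (0.733) and Chgb (0.717). Among the genes nearest to Olig2 were Ybx3 (0.831) and Asf1a (0.806). Olig1 was nearest to Litaf (0.952), Kcne1l (0.938) and Ctnnbip1 (0.911), and Nkx2-2 to Nim1k (0.949), Apba3 (0.948) and Prrx1 (0.946).

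The surface markers, Sox10 and Bcas1 lay nearest to genes outside the lineage lists, as Olig1 and Nkx2-2 did. Pdgfra was nearest to Pxdn (0.871), Tenm3 (0.868) and Plxna4 (0.862), and Cspg4 to Igf2r (0.882), Plxna2 (0.878) and Reln (0.877). Gpr17 was nearest to Sptbn4 (0.88), Kcnf1 (0.871) and Plec (0.867), Sox10 to Dffa (0.903), Cacnb1 (0.89) and Napg (0.873), and Bcas1 to Nrip3 (0.894), Ccsap (0.859) and Sowaha (0.856). After group and replicate set were removed, the r of Sox10 with Napg was 0.478 and that of Nkx2-2 with Nim1k was 0.929.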

How the data were processed

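Per the labels' protocols, polysomes of cortex from 53 mice were captured with anti-GFP beads, and oligo-dT selected RNA was made into strand-specific libraries. The authors deposited whole-number counts per gene with no normalization, and 4 animals that were sequenced in both runs have 1 column each. The submitters' processing notes name CASAVA, HISAT2, SAMtools, featureCounts and GRCm38.p5; tool versions and the strand setting could not be read from them.

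Counts were normalized by TMM in edgeR 4.0.16 under R 4.3.3. The low-count filter removed 0 of 21118 genes. CPM used the effective library sizes. One quasi-likelihood model held 12 groups of sex and age and a term for the 4 libraries from the second run alone. A second model replaced that term by the replicate set. P-values were adjusted over all 21118 genes by Benjamini-Hochberg, with a threshold of 0.05, and the steps were tested on simulated data. Each library is 1 animal, so p-values measure the spread between animals, except where a replicate set stands for a shared source that the labels do not give.

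The 9 members are named everywhere; of each list, counts, the median and up to 4 genes by smallest adjusted p are given, and per member the 3 most similar genes by Pearson r, predicted genes left out. Correlations used log2 CPM with a prior count of 2. The members and lists were chosen with earlier results of these data known, and some genes stand in more than 1 list. Alternatives were DESeq2 1.42.0, limma 3.58.1 (voom), other normalization and filters, no run term, the replicate set as a block, and leaving out libraries. For single libraries left out, the dispersion trend of all libraries was kept. One of the genes this rule names is not reported here.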

Additional observations from a re-analysis of the deposited data

Results flagged for a closer look

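Among 90 combinations of a member and a group of 4 to 10 libraries, 16 held a library far from the rest of its group by Dixon's test. Chance flags about 1 in 20 where values follow a single normal distribution. CPM values need not do so, and the groups mix replicate sets, so that rate is no measure of an excess here. In libraries of set 3, Pdgfra was high in P4 male 3 (16.3 CPM, next value 3.43), P4 female 3 (16.6, next 2.62) and P14 male 3 (11.2, next 2.99). Gpr17 was high in P1 male 3 (4.55 CPM, next 1.32), P4 female 3 (10.5, next 2.3) and P7 female 3 (43.5, next 11). Olig1 was low in adult female 3 (179 CPM, next 412) and Nkx2-2 low in P1 male 3 (3.24 CPM, next 10.9). Bcas1 in P4 male 3 was at 15.5 CPM (next 6.63) and Enpp6 in adult female 3 at 1.94 CPM (next 0.317).

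The others lie outside set 3. Pdgfra was at 18.6 CPM in P7 male S2 (next 4.95). Bcas1 was at 112 CPM in P1 female 4 (next 10.2), the library with the fewest genes, and at 126 CPM in P7 male 6 (next 28.4). Olig2 was at 291 CPM in P1 female 1 (next 65.2), Sox10 at 71.5 CPM in adult male 60 (next 27.8), and Enpp6 at 3.67 CPM in adult male 1 (next 1.29).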

How the results depend on the processing

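The call of Olig2 between adults and P1 held under every alternative but the loss of P1 female 1, and 9 of 9 members stayed called for the replicate set under every alternative run. No called member changed direction under any alternative. With the replicate set as a block, 6 members were called between adults and P1 (Olig1, Olig2, Sox10, Nkx2-2, Gpr17 and Enpp6, against 41.3% of all genes) and 3 between P7 and P1 (Sox10, Gpr17 and Enpp6, against 12.5%), and the genes called numbered 2637 for P7 against P1, 697 for P14 against P7, 686 for adults against P14 and 9190 for any age difference. As a hint on pairing from the data and not the design, 209 of 223 pairs of libraries of the same set had deviations correlated above 0.1, and 43 of 53 libraries correlated best with their own set. With the block and without the 3 libraries with fewest genes, chosen after seeing the data, 7, 4 and 7 members were called for adults against P1, P7 against P1 and any age difference, and 10050, 3469, 1298, 1939 and 11277 genes for adults against P1, P7 against P1, P14 against P7, adults against P14 and any age difference. Without the libraries whose Y-linked transcripts go against the label, 1 member was called between adults and P1 and 2 for any age difference, with 2 genes for P14 against P7 and 47 for adults against P14. Between P7 and P1, 2 members were called by DESeq2, by limma voom, with a filter at 1 CPM, with no run term and without the 3 libraries with fewest genes, and 0 without set S. The genes called there were 1496 by DESeq2, 1245 with no run term and 512 without libraries with the letter of the other sex. For P14 against P7 they were 193 by DESeq2, 7 with the filter at 1 CPM, 25 by limma voom and 1375 with no run term. They were 8 without the 3 libraries with fewest genes, and 0 without set S or without the libraries with the letter of the other sex. For adults against P14 they were 318 by DESeq2, 61 by limma voom and 263 without the 3 libraries with fewest genes. DESeq2 called 3 genes for sex by age.

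With each library left out in turn, between 1 and 3 members were called for adults against P1, 0 and 2 for P7 against P1 and 2 and 4 for any age difference. The genes called ranged from 123 to 941 for P7 against P1, from 0 to 200 for P14 against P7 and from 26 to 170 for adults against P14. The cause of these shifts was not tested. Counts limit Enpp6 most, with 0 counts in 9 of 53 libraries.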
